A study of Homo sapiens with 12 samples.

Results

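The 8 keratin genes described here are KRT7, KRT8, KRT10, KRT15, KRT18, KRT19, KRT80 and KRT81. They were picked by symbol from the 55 keratin genes among the 19973 genes of the expression table, and each symbol occurred once. Earlier results of these data were known at that choice, so counts and shares over the 8 are a description. The study asked how isovalerylspiramycin I (ISP-I), a macrolide that is a component of the antibiotic carrimycin, changes gene expression in non-small cell lung cancer (NSCLC) cells. The cells were of the established human NSCLC lines H460 (large cell carcinoma) and A549 (adenocarcinoma), both given as WT. The paper states that both lines have homozygous inactivating mutations of KEAP1, so WT does not mean free of mutations. Cells of each line were left untreated or received 10 µM ISP-I for 48 h. Each of the 4 groups had 3 RNA-seq libraries, 12 in all, and each library held between 14225849 and 17874422 reads on genes. The table lists FPKM, fragment counts normalised to gene length and library size, and every level below is in that unit. Each group is a single line at a single dose and time, and the labels do not say whether its libraries came from separate cultures, so the p-values measure the spread between these libraries, which may be technical.

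Keratins are the intermediate filament proteins of epithelial cells. Type I (acidic) and type II (basic) chains pair with each other, so a filament needs at least 1 member of each type. KRT8 (type II) and KRT18 (type I) are the pair of simple epithelia. KRT7 (type II) and KRT19 (type I) accompany them in ducts and airways, and KRT19 is unusual in lacking most of the tail domain. KRT80 is a type II keratin found near desmosomes of differentiating cells, KRT81 is a type II hair keratin, KRT10 (type I) is the suprabasal keratin of skin, and KRT15 (type I) marks basal cells of stratified epithelia. Soluble fragments of KRT19, KRT18 and KRT8 are used as tumour markers in patient blood, and KRT7 is a common stain for lung adenocarcinoma.

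The genes lie in both keratin clusters of the genome (hg38). On chromosome 12, KRT80 (ENSG00000167767) spans chr12:52168996-52192014 on the minus strand, KRT7 (ENSG00000135480) spans chr12:52232520-52252186 on the plus strand, and KRT81 (ENSG00000205426) spans chr12:52285913-52291534 on the minus strand. KRT8 (ENSG00000170421, chr12:52897187-52949954, minus) and KRT18 (ENSG00000111057, chr12:52948871-52952906, plus) overlap head to head, and KRT18 is the one type I gene that lies among the type II genes. On chromosome 17, all on the minus strand, KRT10 (ENSG00000186395) spans chr17:40818117-40822614, KRT15 (ENSG00000171346) spans chr17:41513745-41522529 and KRT19 (ENSG00000171345) spans chr17:41523617-41528308. In GENCODE v44, exons of KRT8 and KRT18 shared 525 bases on opposite strands, which is 26.5% of the main (MANE) transcript of KRT18 by 375 of those bases and 0 bases of the MANE transcript of KRT8. KRT7 shared 282 exon bases with the antisense gene KRT7-AS and KRT10 shared 61 with KRT10-AS1. Whether the counting used strand is not given in the sources used here, so reads from those bases cannot be assigned to one gene. KRT81 had 25.6% of its 150-base transcript windows in common with its neighbour KRT86, so its level is uncertain, and the other 7 genes had 0% at that length. In 50-base windows the part shared with other genes was 44.6% for KRT81, 39.2% for KRT8, 35.3% for KRT18 and at most 1.79% for the rest.

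RefSeq (GRCh38.p14) start regions were at hand for 2 of the 8 genes, and they are shown because they differ in the TATA box, the element that places the transcription start of many tissue-specific genes. Each sequence is the 250 bases before the listed start, 5′ to 3′ on the minus strand, at chr12:52926470-52926719 for KRT8 and chr17:40822615-40822864 for KRT10, with the motif in capitals.
KRT8: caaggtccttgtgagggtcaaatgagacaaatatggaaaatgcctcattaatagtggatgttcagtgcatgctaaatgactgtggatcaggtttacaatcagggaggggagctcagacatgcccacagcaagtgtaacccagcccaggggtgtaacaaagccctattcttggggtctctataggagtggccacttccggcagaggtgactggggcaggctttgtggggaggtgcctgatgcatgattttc
KRT10: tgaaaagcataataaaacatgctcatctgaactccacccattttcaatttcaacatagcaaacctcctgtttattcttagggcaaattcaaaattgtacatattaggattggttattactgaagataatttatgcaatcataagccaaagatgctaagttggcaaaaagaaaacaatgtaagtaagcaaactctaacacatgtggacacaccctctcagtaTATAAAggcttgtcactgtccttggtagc
The KRT10 start was that of its MANE transcript, and the TATA box letters TATAAA began at position -29. The KRT8 entry belonged to a start 21393 bases away from that of its MANE transcript. Of the other motifs searched on both strands, AP-1 (TGANTCA), SP/KLF (GGGCGG) and AP-2 (GCCNNNGGC), none was found in either region. Among 35116 RefSeq start regions of 300 bases, TATAAA was found in 11.5%, TGANTCA in 7.71%, GGGCGG in 45.0% and GCCNNNGGC in 23.2%. The expression data do not measure these regions.

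The name "simple epithelial and stress-linked" covers these genes in part. KRT7, KRT8, KRT18 and KRT19 are keratins of simple epithelia, while KRT10, KRT15, KRT80 and KRT81 are known from skin, stratified epithelia or hair. KRT8, KRT18 and KRT19 were among the 4 highest keratins of H460, and KRT8, KRT7 and KRT18 among those of A549. The hair keratin KRT81 had the highest mean FPKM of untreated A549 on the table's gene lengths. On MANE lengths KRT8 did (2507 against 750 for KRT81). The keratins classically induced by injury and stress, KRT6A, KRT6B, KRT6C, KRT16 and KRT17, are not among the 8. KRT6A, the highest of the KRT6 genes, did not exceed a group mean of 0.181 FPKM, KRT16 had its highest mean in untreated A549 (1.25) and KRT17 in treated A549 (1.09). The 8 genes held between 99.0% and 99.8% of all keratin FPKM in every library. Other epithelial markers were low: EPCAM, the epithelial adhesion molecule, was between 1.31 and 2.08 FPKM in A549 and at most 0.148 in H460. CDH1, which encodes E-cadherin, was listed at 0 in the 3 untreated H460 libraries and at 4.75, 4.77 and 5.18 in the untreated A549 libraries. In treated A549 CDH1 was at 0.911, 0.752 and 0.605. CLDN4, ESRP1, RAB25 and ST14 also had higher means in untreated A549, while CLDN7, ESRP2, SPINT1 and PRSS8 had higher means in untreated H460. ESRP1, RAB25, ST14, SPINT1 and PRSS8 had at most 9 reads in any untreated library, so their direction is uncertain. The untreated libraries of the lines overlapped for ESRP1, RAB25 and PRSS8. The mean of CLDN7 was 1.23 in untreated H460 and 0.0824 in untreated A549. The 10 epithelial markers other than keratins summed to 2.12 to 2.37 FPKM in untreated H460 and 8.83 to 9.74 in untreated A549. They summed to 1.93 to 2.13 in treated H460 and 5.96 to 6.77 in treated A549. Summed markers of fibroblasts, leukocytes and endothelium stayed at or below 11.5, 7.66 and 0.942 FPKM in every library. The fibroblast and leukocyte sums exceeded the non-keratin epithelial sum in both H460 groups (10.3 to 11.5 and 5.27 to 6.57 untreated). In untreated A549 they were below that sum, at most 3.01 and 2.69. In treated A549 the leukocyte sum (7.24 to 7.66) was above it and the fibroblast sum below. Mean FPKM was 8.60 for COL3A1 (fibroblast) and 5.92 for CD14 (leukocyte) in untreated H460. ITGAM (leukocyte) had a mean of 6.89 in treated A549. PTPRC, the pan-leukocyte marker, was at most 0.0368.

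**Figure D1:**
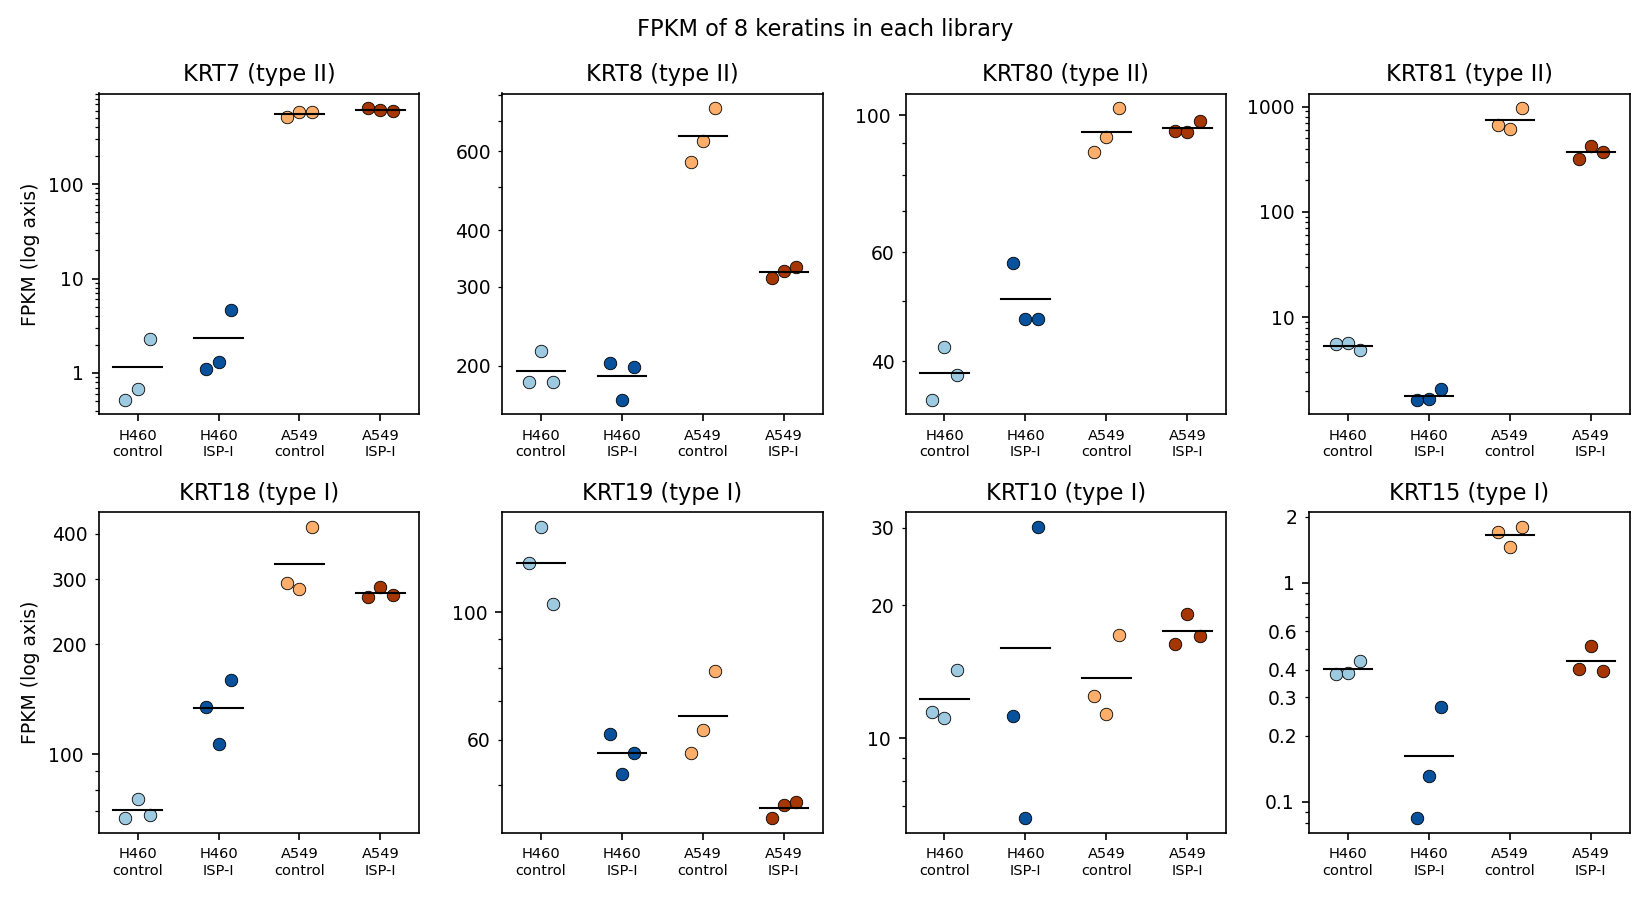
FPKM (log axis, a separate range in each panel) of the 8 keratins in each of the 12 libraries, with the group mean as a bar. KRT7 and KRT81 separated the lines most, and KRT18 rose with ISP-I in H460 while KRT8 fell in A549.

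Untreated H460 and untreated A549 differed in nearly all of these genes. A549 held more of 6 keratins, above all KRT7 and KRT81, H460 held more KRT19, and KRT10 did not pass the test. In H460 the order of mean levels was KRT8, KRT19, KRT18, KRT80, KRT10, KRT81, KRT7, KRT15, and no neighbours in that order overlapped. In A549 it was KRT81, KRT8, KRT7, KRT18, KRT80, KRT19, KRT10, KRT15, where the libraries of KRT81 and KRT8 overlapped, as did those of KRT8 and KRT7. Of 13532 genes tested, 5.64% were higher in H460 and 8.78% lower at an adjusted p under 0.05 and a difference over 2-fold, 60.2% passed the adjusted p at any fold, and 64.8% had groups that did not overlap. Of the 8 keratins, 0 were higher and 5 lower in H460 by that rule, 7 passed the adjusted p, and 7 did not overlap. The median difference, H460 minus A549, was -1.5 over the 8 keratins and -0.03 over all genes tested, on the scale of log2(FPKM + 1).

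KRT7 was at 0.521, 0.675 and 2.30 FPKM in the untreated H460 libraries and at 512, 586 and 574 in those of A549. KRT81 was at 5.55, 5.73 and 4.91 in H460 and at 666, 617 and 968 in A549. Both genes were thus low in H460 and among the 3 highest keratins in A549. The differences on the log2 scale were -8.10 (SE 0.257, adjusted p = 3.57e-08) for KRT7 and -6.85 (SE 0.162, adjusted p = 8.99e-09) for KRT81.

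The simple epithelial pair was higher in A549 by smaller steps. KRT8 was at 184, 215 and 184 FPKM in H460 and at 568, 634 and 748 in A549, a log2 difference of -1.73 (adjusted p = 7.66e-06). KRT18 was at 66.9, 75.5 and 68.4 in H460 and at 293, 283 and 418 in A549, a log2 difference of -2.20 (adjusted p = 4.28e-06). KRT80 followed the same direction, with 34.7, 42.1 and 38.0 in H460 against 87.1, 92.1 and 103 in A549 (log2 difference -1.28, adjusted p = 1.17e-05). KRT19 was the exception, at 122, 141 and 103 in H460 and 57.0, 62.3 and 78.9 in A549. Its log2 difference was 0.88 (SE 0.151, adjusted p = 0.00111), under 2-fold, and it was over 2-fold without the third A549 library (1.01). KRT15 was low throughout, at 0.384, 0.386 and 0.439 in H460 and 1.70, 1.46 and 1.80 in A549. Its log2 difference was -0.92 (adjusted p = 1.60e-05), a value that the added 1 FPKM holds down: it was -1.80 with a pseudocount of 0.1. KRT10 was at 11.4, 11.1 and 14.3 in H460 and 12.5, 11.4 and 17.2 in A549, and these libraries overlapped (log2 difference -0.13, adjusted p = 0.492). The third A549 control library was the highest of its group for each keratin but KRT7.

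The order within a library depends on the length used. The table's lengths equal the union of all annotated exons, which is 3.86 times the MANE transcript for KRT8, 2.46 times for KRT7, 2.17 times for KRT18 and equal to it for KRT81. Per kilobase of MANE transcript, KRT8 led untreated A549 at 2507 ± 352 (SD, n = 3), followed by KRT7 at 1371 ± 97.6, KRT81 at 750.2 ± 191 and KRT18 at 719.8 ± 164. Ratios of FPKM between libraries for one gene do not depend on the length, while differences of log2(FPKM + 1) do for low genes such as KRT15.

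In H460, ISP-I moved KRT18 up and KRT19 and KRT81 down, while the libraries of KRT8 overlapped its controls. KRT80 was somewhat higher and KRT15 lower, and KRT7 and KRT10 did not pass the test. Of 13423 genes tested, 10.5% were called higher and 15.2% lower over 2-fold, 69.2% passed the adjusted p at any fold (27.6% higher, 41.5% lower), and 72.7% did not overlap. Of the 8 keratins, 0 were called higher and 2 lower (KRT19 and KRT81), 5 passed the adjusted p and 5 did not overlap, so their share that passed was near that of all genes. The median log2 difference was 0.04 over the 8 keratins and -0.15 over all genes tested. The scaling matters here: 1409 genes were called higher and 2047 lower, but 1957 and 1511 with median-of-ratios scaling, which moves the median of all genes by 0.15, and then 1 keratin was called higher (KRT18) and 0 lower. In bulk RNA, a change in the number of cells that express a gene and a change in RNA per cell cannot be told apart.

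The pair partners KRT8 and KRT18 separated in H460. KRT8 was at 203, 168 and 198 FPKM after ISP-I, around its control libraries of 184 to 215, and the log2 difference was -0.04 with a 95% interval from -0.37 to 0.30 (adjusted p = 0.839). With median-of-ratios scaling that difference was 0.25 (adjusted p = 0.193), which turns its sign. KRT18 was at 135, 107 and 160 after ISP-I, and all 3 values lay above the highest control of 75.5. The log2 difference was 0.90 (SE 0.165, adjusted p = 0.00128), or 70.3 ± 4.56 against 133.6 ± 26.4 FPKM (SD, n = 3). The second treated library was the lowest for both KRT8 and KRT18, and KRT18 exceeded 2-fold without it (1.05).

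KRT19 fell to 61.5, 52.3 and 57.0 FPKM after ISP-I, below every control. Its mean went from 121.9 ± 18.8 to 56.9 ± 4.59 FPKM, a log2 difference of -1.08 (SE 0.149, adjusted p = 0.00025). Without the second control library, or with median-of-ratios scaling, this was -0.97 and -0.80, still past the adjusted p but under 2-fold. KRT81, already low in this line, was at 1.65, 1.68 and 2.10, well under its 3 controls, with a log2 difference of -1.19 (adjusted p = 3.32e-05). It was just under 2-fold with median-of-ratios scaling (-0.99) and with quantile normalization (-0.96). At this low level the added 1 FPKM holds the value down: the log2 difference of KRT81 was -1.53 with a pseudocount of 0.1. With limma voom it was -1.29.

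KRT80 was at 57.6, 46.8 and 46.8 FPKM after ISP-I against controls of 34.7 to 42.1, which did not overlap. The log2 difference was 0.39 (adjusted p = 0.0307). It did not pass without the first control (0.32, adjusted p = 0.116), the third control (0.38, adjusted p = 0.0824) or the first treated library (0.29, adjusted p = 0.117). With no filter on level it just missed (adjusted p = 0.0501). It was larger with median-of-ratios scaling (0.66, adjusted p = 0.00303) and with limma voom (0.69, adjusted p = 0.00145). KRT15 was at 0.0844, 0.131 and 0.271, on 9 to 24 reads per library against 33 to 39 in controls. That was a log2 difference of -0.27 (adjusted p = 0.00941), and -1.0 with a pseudocount of 0.1.

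KRT7 and KRT10 did not pass in H460, and their libraries lay far apart. The SD of KRT7 was 84.5% of its mean in controls and 84.6% after ISP-I, and that of KRT10 was 14.4% and 78.2%. KRT7 was at 1.11, 1.31 and 4.65 FPKM on 79 to 276 reads, with a log2 difference of 0.57 (95% interval -0.36 to 1.5, adjusted p = 0.239). KRT10 was at 11.2, 6.58 and 30.2, with a log2 difference of 0.11 (95% interval -0.88 to 1.10, adjusted p = 0.832). The third library was the highest for both genes in both H460 groups. Without the third treated library the log2 differences were 0.12 for KRT7 and -0.46 for KRT10, neither past the adjusted p.

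In A549, ISP-I lowered KRT8, KRT81, KRT19 and KRT15. No keratin of the 8 rose by the test, and KRT7, the keratin with the highest level after treatment, did not pass. Of 13705 genes tested, 4.2% were called higher and 3.51% lower over 2-fold, 57.5% passed the adjusted p at any fold (30.5% higher, 27.0% lower), and 65.5% did not overlap. Of the 8 keratins, 0 were called in either direction over 2-fold, 4 passed the adjusted p, all 4 lower, and 5 did not overlap. The median log2 difference was -0.38 over the 8 keratins and 0.02 over all genes tested.

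KRT8 was at 313, 326 and 332 FPKM after ISP-I, against 568 to 748 in controls. The means were 649.9 ± 91.4 and 324 ± 9.28 FPKM (SD, n = 3), and the log2 difference of -0.99 (SE 0.109, adjusted p = 0.000125) lay at the edge of the 2-fold rule. KRT81 was at 317, 420 and 374 against 617 to 968, with a log2 difference that rounds to -1.0 (SE 0.179, adjusted p = 0.00177) and also just missed 2-fold. With median-of-ratios scaling both crossed it, at -1.03 each. The third control, the highest for KRT81, carried part of this gene's difference, which was -0.80 without it.

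KRT19 was at 43.8, 46.2 and 46.8 FPKM after ISP-I, again below every control, with a log2 difference of -0.51 (SE 0.114, adjusted p = 0.00538). KRT15 was at 0.404, 0.513 and 0.397, on 34 to 48 reads against 128 to 159 in controls. Its means were 1.65 ± 0.176 and 0.438 ± 0.0648, and the log2 difference was -0.88 (adjusted p = 3.66e-05), or -1.71 with a pseudocount of 0.1.

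KRT18 did not follow KRT8 down by the test. It was at 268, 285 and 272 FPKM against controls of 293, 283 and 418, so the groups overlapped. The log2 difference was -0.24 (95% interval -0.58 to 0.09, adjusted p = 0.179), and -0.07 without the third control, but with quantile normalization it was -0.34 and passed (adjusted p = 0.00513). KRT80 was at 94.3, 94.0 and 97.9, inside its control range of 87.1 to 103 (log2 difference 0.03, 95% interval -0.15 to 0.20). KRT7 was at 637, 606 and 599.8 against controls of 512 to 586, which did not overlap, yet the log2 difference was 0.14 (adjusted p = 0.196). KRT10 was at 16.3, 19.2 and 17.1, which overlapped its highest control of 17.2 (log2 difference 0.35, adjusted p = 0.0597). Without the third control both passed, KRT7 at 0.16 (adjusted p = 0.0431) and KRT10 at 0.52 (adjusted p = 0.000119).

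**Figure D2:**
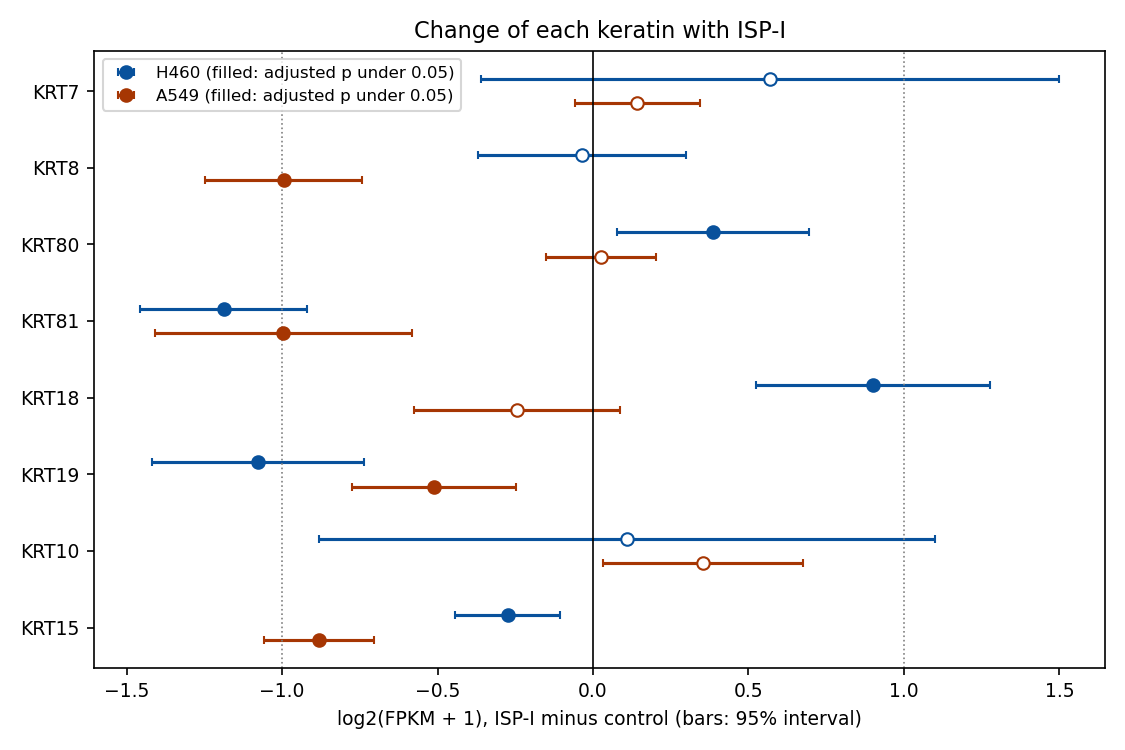
Log2 difference of FPKM + 1, ISP-I minus control, for the 8 keratins in H460 (blue) and A549 (brown), with 95% intervals from limma. Filled points passed an adjusted p under 0.05 and dotted lines mark 2-fold. KRT18 passed in H460 at 0.90 and KRT8 in A549 at -0.99, while KRT19 and KRT81 were below 0 in both lines.

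Whether the response differed between the lines was tested as the interaction of line and treatment over all 12 libraries, which uses the same libraries as the 2 treatment comparisons. Of 13953 genes, 5.93% had a response over 2-fold more positive in H460 and 10.1% more negative, and 53.3% passed the adjusted p at any fold. Among the 8 keratins 4 passed, and KRT18 was the 1 called over 2-fold. The median was 0.39 over the 8 keratins and -0.16 over all genes tested. Over all genes, 827 calls were more positive in H460 and 1407 more negative, against 1300 and 827 with median-of-ratios scaling, which moves the median by 0.18. The difference of the log2 changes, H460 minus A549, was 1.14 for KRT18 (SE 0.233, adjusted p = 0.00133) and 0.96 for KRT8 (SE 0.179, adjusted p = 0.000726). For KRT18 it was 0.97 without the third A549 control, which is under 2-fold. For KRT8 it was 1.27 with median-of-ratios scaling, which is over 2-fold. KRT15 differed by 0.61 (adjusted p = 0.000366), but with a pseudocount of 0.1 its difference of 0.70 did not pass (adjusted p = 0.0838). KRT19 differed by -0.56 (adjusted p = 0.0254), and with median-of-ratios scaling by -0.25 (adjusted p = 0.334). Without any 1 of 6 libraries (the first or second A549 control, the second treated or the third treated A549 library, the second H460 control, the second treated H460 library) its adjusted p lay between 0.0521 and 0.0678. A difference between lines was not detected for KRT80 (0.36, adjusted p = 0.0622), KRT81 (-0.19, adjusted p = 0.491), KRT7 (0.43, adjusted p = 0.474) or KRT10 (-0.24, adjusted p = 0.716). That of KRT80 passed with median-of-ratios scaling (0.67, adjusted p = 0.00553), and that of KRT10 passed without the third treated H460 library (-0.81, adjusted p = 0.0216).

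The ratio of pair partners within a library does not depend on how libraries are scaled to each other. The KRT8 to KRT18 ratio of FPKM was 2.75, 2.85 and 2.69 in untreated H460 and 1.51, 1.57 and 1.24 after ISP-I. In A549 it was 1.94, 2.24 and 1.79 in controls and 1.17, 1.14 and 1.22 after ISP-I. The ratio was thus lower in every treated library of either line than in any control of that line, by 1.92 times in H460 and 1.69 times in A549 between the means. In H460 it was KRT18 that passed the test, as higher, and in A549 it was KRT8, as lower. On MANE lengths the ratio went from 4.77 to 5.06 down to 2.21 to 2.80 in H460, and from 3.18 to 3.97 down to 2.03 to 2.17 in A549. The exon bases that both genes share on opposite strands enter this ratio, and their part in it was not tested. KRT19 to KRT18, both type I, went from 1.73 ± 0.194 to 0.435 ± 0.0691 in H460 and from 0.201 ± 0.0166 to 0.166 ± 0.00557 in A549 (SD, n = 3), so that KRT18 replaced KRT19 as the leading type I keratin of H460.

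**Figure D3:**
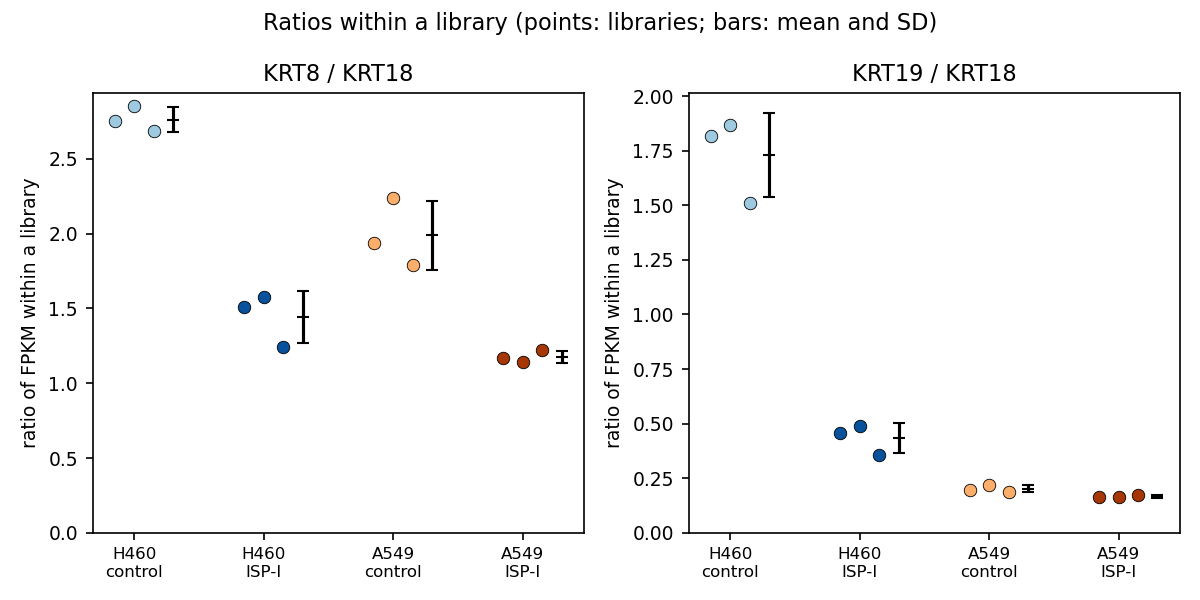
FPKM ratio of KRT8 to KRT18 (left) and KRT19 to KRT18 (right) in each library, with the group mean and SD beside the points and linear axes from 0. The KRT8 to KRT18 ratio of treated libraries lay between 1.14 and 1.57, below all controls, which lay between 1.79 and 2.85.

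The summed FPKM of the 8 keratins hid these shifts in H460. The sum was 444 ± 41.4 in untreated and 451 ± 60.1 in treated H460, which differed by less than the SD. In A549 it was 2464 ± 388 and 1743 ± 52.4, and the highest treated library (1796) lay below the lowest control (2196). Of all reads on genes, the 8 keratins took 0.205% and 0.212% in H460 and 0.977% and 0.681% in A549, control and treated. Within the sum, KRT18 went from 15.9% ± 0.566 to 29.5% ± 2.21 in H460 and KRT19 from 27.4% ± 2.18 to 12.7% ± 1.15. In A549, KRT7 went from 22.9% ± 2.97 to 35.3% ± 2.11, KRT81 from 30.2% ± 3.16 to 21.2% ± 2.32 and KRT8 from 26.4% ± 1.11 to 18.6% ± 0.476. Type II exceeded type I by 1.17 ± 0.0540 times in untreated and 1.20 ± 0.159 times in treated H460, and by 5.02 ± 0.372 and 4.14 ± 0.0313 times in A549. These shares and ratios use the table's gene lengths. On MANE lengths type II exceeded type I by 2.09 to 2.26 times in untreated and 1.75 to 2.16 times in treated H460, and by 5.05 to 6.25 and 4.55 to 4.75 times in A549.

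**Figure D4:**
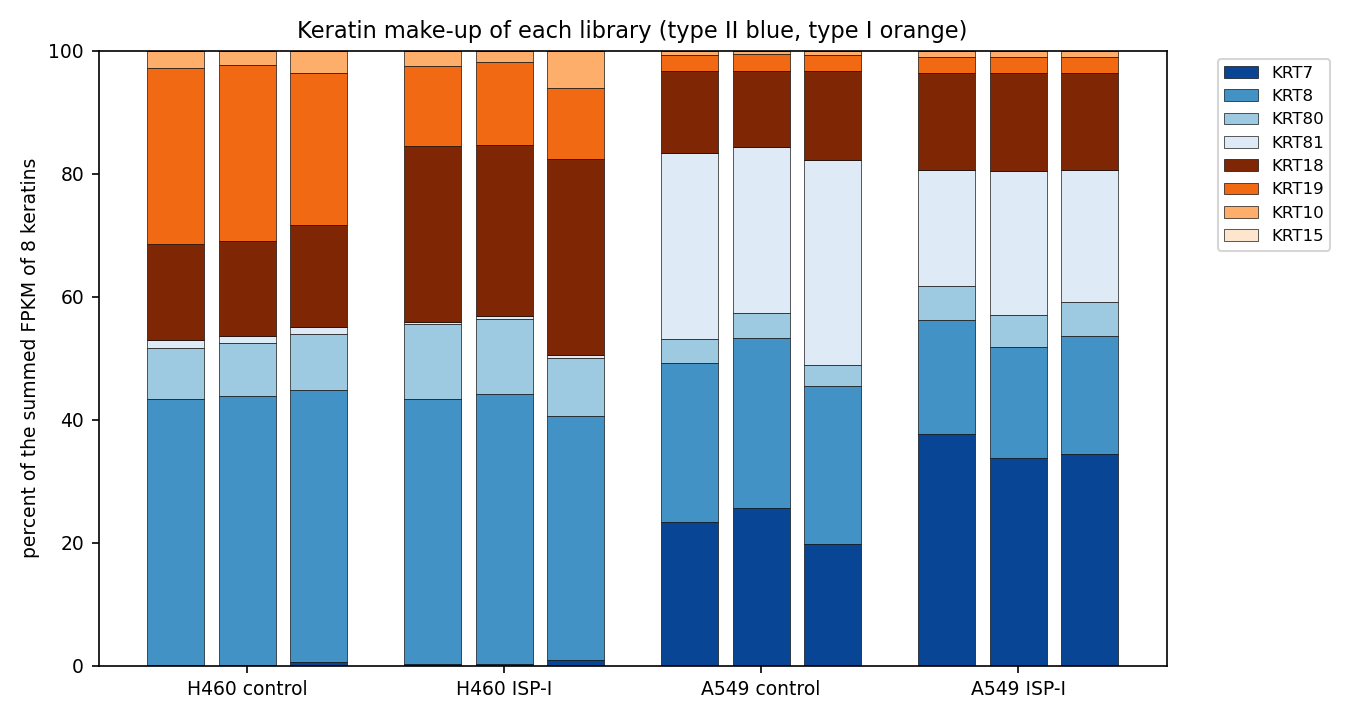
Share of the summed FPKM of the 8 keratins held by each gene, stacked to 100% for each of the 12 libraries, with type II in blue and type I in orange. The KRT18 band widened from 15.9% to 29.5% in H460 and the KRT7 band from 22.9% to 35.3% in A549.

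The other 47 keratins of the table were low, 33 of them under a mean of 0.1 FPKM in every group and 4 without a read. Of those that could be tested in A549, 13 in all, 5 passed higher, 3 passed lower and 5 did not pass (57.5% of all genes passed). In H460 7 were tested, of which 3 passed higher, 2 lower and 2 did not pass (69.2% of all genes passed). KRT17 and KRT75 were under 0.1 FPKM in the controls of both lines, as were KRT34 in H460 and KRT33B in A549. They entered the test through their treated libraries, so their direction follows from the filter and these counts are a description. A mean of 1 FPKM in any group was reached by 7, and the highest group mean was 2.12, of KRT86 in untreated A549. KRT17, KRT33B, KRT34 and KRT75 reached that mean in treated groups alone, and KRT4, KRT16 and KRT86 in untreated A549 alone. Their direction in A549 therefore follows from how they were picked, and their values are given as a description. KRT17, a stress and basal keratin, was at 0, 0.0908 and 0.0226 FPKM in untreated A549 and at 0.715, 1.43 and 1.14 after ISP-I. The hair keratin KRT34 was at 0.482, 0.583 and 0.541 and then at 1.72, 1.89 and 2.15. KRT75, a hair follicle keratin, was listed at 0 in the 3 controls, where 3 reads would be at most 0.0972 FPKM, and at 1.02, 1.20 and 1.48 after ISP-I. KRT33B, another hair keratin, had at most 0.0842 in controls and 1.03 to 1.21 after ISP-I. In treated H460 the highest values were 0.427 for KRT17, 1.19 for KRT34, 0.528 for KRT75 and 0.312 for KRT33B. These values rest on at most 67 reads per library. KRT16, a stress keratin that pairs with KRT6, was at 1.14, 0.989 and 1.64 in untreated A549 and at 0.0811, 0.386 and 0.338 after ISP-I. KRT86, the hair keratin next to KRT81, was at 2.12 ± 0.230 in untreated and 0.838 ± 0.198 in treated A549 (SD, n = 3). In H460, which played no part in picking it, KRT86 fell from 0.621 ± 0.134 to 0.280 ± 0.115 (adjusted p = 0.00962). Reads that KRT81 and KRT86 share were not told apart. KRT4, of non-cornified stratified epithelia, was between 0.842 and 1.27 FPKM in A549, where its treated libraries overlapped the controls.

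The lists below are read against all genes tested, of which 69.2% passed the adjusted p in H460 (27.6% higher, 41.5% lower, median -0.15) and 57.5% in A549 (30.5% higher, 27.0% lower, median 0.02). Of desmosome and plakin genes, 15 were tested in H460, where 4 passed higher and 5 lower (60.0% together, median 0.10), and 14 in A549, where 3 passed higher and 4 lower (7 of 14 together, median 0.07). Over 2-fold, EVPL was called lower in H460, and in A549 PPL was called higher and JUP lower. Both EVPL and PPL encode plakins that link keratins to desmosomes. EVPL went from 11.2, 12.3 and 13.1 FPKM to 2.76, 2.67 and 3.07 in H460, and PPL from 3.97, 4.30 and 3.50 to 10.1, 9.29 and 9.71 in A549. Both also passed in the other line under the 2-fold rule. PPL went from a mean of 0.299 to 1.53 FPKM in H460 (log2 difference 0.96, adjusted p = 1.31e-05). The log2 difference of EVPL in A549 was -0.51 (adjusted p = 0.000352). By the interaction test the lines differed for EVPL (-1.27, adjusted p = 2.69e-06) and a difference was not detected for PPL (-0.16, adjusted p = 0.278). JUP, which encodes plakoglobin, the link from desmosomal cadherins to plakins, fell in A549 from 20.1, 23.7 and 22.1 FPKM to 5.83, 5.61 and 5.18 (log2 difference -1.81, adjusted p = 1.61e-06). PLEC, which encodes plectin, a cytoskeletal cross-linker, was the highest of the list and did not pass in either line (0.19 and 0.16). Of 7 hemidesmosome genes, H460 had 3 that passed higher and 0 lower (42.9%, median 0.19), and A549 had 3 higher and 2 lower (71.4%, median 0.04). LAMB3 was called higher in both lines and ITGB4 lower in A549. ITGB4, the integrin chain that binds the keratin network through plectin, went from 68.0, 71.8 and 72.7 FPKM to 18.4, 17.7 and 18.4 in A549 (log2 difference -1.91, adjusted p = 3.86e-07), and it was at most 0.308 FPKM in H460. LAMB3, a laminin chain of the same structure, had log2 differences of 1.82 for H460 (adjusted p = 2.76e-06) and 1.01 for A549 (adjusted p = 9.16e-06).

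Other intermediate filament genes had 10 members tested in H460, where 1 passed higher and 6 lower (70.0%, median -1.01), and 11 in A549, where 7 passed higher and 3 lower (90.9%, median 0.45). VIM, the mesenchymal filament vimentin, was at 64.3, 59.4 and 82.0 FPKM in untreated A549 and 101, 109 and 98.6 after ISP-I (log2 difference 0.59, adjusted p = 0.00301). In H460 vimentin was at 75.0, 71.2 and 72.7 and then at 71.2, 61.0 and 79.4 (adjusted p = 0.722). The nuclear lamin LMNB1 fell in both lines, with log2 differences of -3.17 for H460 (adjusted p = 4.19e-07) and -1.52 for A549 (adjusted p = 1.24e-06). Of 29 genes for proteins that bind or modify keratins, H460 had 7 that passed higher and 12 lower (65.5%, median -0.04), and A549 had 6 higher and 9 lower (51.7%, median 0.06). HSPA8, the constitutive chaperone Hsc70 and the highest of that list, fell in H460 from 670.4, 637 and 599 FPKM to 226, 195 and 196 (log2 difference -1.62, adjusted p = 2.28e-05), and its log2 difference in A549 was -0.25 (adjusted p = 0.0189). SFN, which encodes the 14-3-3 sigma protein, rose in H460 from 129, 141 and 137 FPKM to 644, 545 and 1058 (log2 difference 2.40, adjusted p = 3.74e-05), and in A549 by 0.47 (adjusted p = 0.0044). CASP6, the caspase known to cut KRT18, fell in both lines, with log2 differences of -2.50 for H460 (adjusted p = 7.59e-07) and -1.18 for A549 (adjusted p = 9.61e-05), and it was named after its values were seen. Of epithelial transcription factors, 13 of 18 tested passed higher and 2 lower in H460 (83.3%, median 0.61), and 10 of 25 higher and 11 lower in A549 (84.0%, median -0.01). KLF5 went from 2.27, 2.18 and 2.92 FPKM to 24.4, 30.6 and 24.2 in H460 (adjusted p = 8.42e-07). It was at 19.9 to 22.9 in untreated and 21.7 to 22.5 in treated A549 (adjusted p = 0.908). CEBPB, ETS1 and KLF4 ranked above KLF5 in mean over the 12 libraries, treated ones included, so their changes are a description. Log2 differences in H460 and A549 were 1.69 and 2.21 for CEBPB, 3.77 and 1.52 for ETS1, and 1.31 and 0.53 for KLF4. Among cornified envelope genes, H460 had 3 of 9 that passed higher and 2 lower (55.6%, median 0.22), and A549 had 3 of 6 higher and 0 lower (median 0.33). S100A2 had the highest mean of that list over the 12 libraries, a rank it owed to the treated groups, so its values are given with no test. It was at 4.05, 4.90 and 4.43 in untreated and 39.4, 38.1 and 85.2 in treated H460, and at 3.46, 3.34 and 5.21 and then 42.9, 43.0 and 40.6 in A549. In untreated A549 CNFN, with a mean of 5.03, was above it.

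The genes with the most like pattern over the 12 libraries were sought by Pearson correlation of log2(FPKM + 1) among 6650 genes. The 12 points are 4 groups of 3 libraries that share a line and a treatment, so r is given as a description. KRT81 was most like NNMT (r = 0.998), CD9 and DMTN, and KRT7 was most like TRNP1 (r = 0.997), SLC22A3 and MYEOV. KRT8 was most like GPX2 (r = 0.987), TM4SF4 and COL5A1, and KRT18 was most like DBNDD1 (r = 0.984), RNF121 and MISP. For KRT80 these were PFKFB3 (r = 0.989), SMAD3 and CHST3, and for KRT19 they were TUBA1A (r = 0.990), CS and CWF19L1. KRT10 had the weakest likeness, with RPS9 (r = 0.937), ZCCHC3 and UBE2S, and KRT15 was too low to be included.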

How the data were processed

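RNA was sequenced after TruSeq library preparation from 12 libraries, 3 in each of 4 groups. The authors' processing notes name FastQC, HISAT2, HTSeq 0.9.1 and hg38, and the deposited values are FPKM per gene. Which annotation was used, and whether counting was stranded, is not given in the sources used here. All FPKM were whole multiples of 1 read (100% within 0.05 read), so reads per gene could be recovered. Of the table, 4 lines that name no gene were left out. Columns carry the group but no replicate number, and a library's number here only names it.

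Genes whose mean reached 0.1 FPKM over the libraries compared were fitted on log2(FPKM + 1) with limma 3.58.1 (R 4.3.3, mean-variance trend), with Benjamini-Hochberg adjustment over all genes tested. A gene was called at an adjusted p under 0.05 and a log2 difference over 1. A fold change on this scale understates that of low genes. Each treatment comparison and the comparison of untreated lines used the 6 libraries concerned, and the interaction used all 12. The test was checked on simulated data. Depth limits low genes, since 3 reads are the least taken as a bound for a count of 0. Named genes were the 8 keratins, other keratins reaching 1 FPKM in a group, the 4 highest genes of each list and the 3 genes most like each keratin. From these, examples were printed. CASP6, EVPL, KRT6A, PPL, PTPRC and the epithelial markers other than keratins fall outside that rule and were named after their values were seen. The 8 genes and the lists were chosen with earlier results of these data known. Alternatives were a pseudocount of 0.1, other filters, median-of-ratios scaling, quantile normalization, limma voom on recovered reads, no fold rule, and leaving out each library.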

Additional observations from a re-analysis of the deposited data

Results flagged for a closer look

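The ISP-I response differed between H460 and A549 by the interaction test for 4 of the 8 keratins, a share near the 53.3% of all genes that passed. The log2 change in H460 minus that in A549 was 0.96 for KRT8, 1.14 for KRT18, 0.61 for KRT15 and -0.56 for KRT19. Those of KRT8 and KRT18 passed the adjusted p under every alternative run, with ranges of 0.85 to 1.28 and 0.97 to 1.47. That of KRT15 did not pass with a pseudocount of 0.1 or with limma voom (adjusted p = 0.0838 and 0.172). That of KRT19 did not pass in 8 of 18 alternatives, with adjusted p up to 0.334.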

How the results depend on the processing

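Over 446 refitted values of the 8 keratins, 411 stayed on the same side of the call, 29 crossed into it, 6 left it and 0 called values reversed. In H460, 1 keratin was called higher with median-of-ratios scaling or limma voom and 2 with no fold rule, and 0 were called lower with median-of-ratios scaling and 1 with quantile normalization. In A549, keratins called lower numbered 1 with a pseudocount of 0.1, 2 with median-of-ratios scaling, 2 with quantile normalization, 3 with limma voom and 4 with no fold rule. Between untreated lines, 1 was called higher with no fold rule. For the interaction, 2 were called higher with median-of-ratios scaling, quantile normalization or limma voom, 3 with no fold rule, and 1 lower with no fold rule. Leaving out each library gave H460 0 to 1 higher and 1 to 2 lower keratins, A549 0 to 0 higher and 0 to 2 lower, 0 to 1 higher and 5 to 5 lower between lines, and 0 to 2 higher and 0 to 0 lower for the interaction. Median-of-ratios scaling moved the median of all genes by 0.15 in H460 and 0.18 in the interaction. The cause of these shifts was not tested. Over all genes, calls in H460 were 1409 higher and 2047 lower, 2322 and 3464 with a pseudocount of 0.1, 3080 higher with limma voom, and 3711 and 5576 with no fold rule. In A549 they were 575 and 481, 1336 and 1062 with a pseudocount of 0.1, 1354 and 1243 with limma voom, and 4185 and 3702 with no fold rule. Between lines they were 763 and 1188, 1363 and 2251 with a pseudocount of 0.1, 1478 and 2287 with limma voom, and 3869 and 4276 with no fold rule. For the interaction they were 827 and 1407, 1451 and 2788 with a pseudocount of 0.1, 1300 and 827 with median-of-ratios scaling, 1048 and 919 with quantile normalization, 2114 higher with limma voom, and 2596 and 4841 with no fold rule. No paired analysis was possible because the columns do not carry the replicate numbers of the labels. KRT15 rested on 9 to 159 reads per library and KRT7 in H460 on 30 to 276.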
